A study of Mus musculus with 8 samples.

Results

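The genes described here were 10 components of the DNA replication machinery: Mcm2, Mcm3, Mcm4, Mcm5, Mcm6 and Mcm7, which encode the subunits of the replicative helicase, Cdc6, which encodes a helicase loader, Pcna, which encodes the sliding clamp, and Rrm1 and Rrm2, which encode the subunits of ribonucleotide reductase. Every probe set that the platform annotation assigned to one of these symbols and to no other gene was taken, which gave 27 of the 45101 probe sets on the array and 10 of the 18194 genes named in this way. Their signals were compared across 4 pools of whole embryonic kidney RNA. The pools were E18.5 Lim1 conditional mutants (9 embryos, Lim1 flox/lacZ; Rarb2-Cre tg/+), E18.5 controls (14 embryos, Lim1 flox/+; Rarb2-Cre tg/+), E14.5 Lim1 conditional mutants (17 embryos) and E14.5 controls (23 embryos), with the same genotypes at both stages. All 4 pools therefore carried the Rarb2-Cre transgene and a floxed Lim1 allele, on a mixed background of 129, C57BL/6 and SJL/J. Lim1, also called Lhx1, encodes a homeodomain transcription factor, and Rarb2-Cre acts in the metanephric mesenchyme, so the ureteric bud of the mutants kept an intact floxed allele beside the lacZ null allele, and newborn mutants have kidneys that lack nephrons. Each pool was hybridized to 2 arrays from separate target preparations of a single RNA, so a condition had 1 biological replicate, the spread between duplicate arrays was technical, and no test was made between 2 pools.

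Before a cell enters S phase, the origin recognition complex, Cdc6 and Cdt1 load the ring of Mcm2 to Mcm7 onto replication origins, a step called licensing. During S phase the loaded ring is activated as the helicase that unwinds DNA, Pcna holds the polymerases on their template, and ribonucleotide reductase converts ribonucleotides to the deoxyribonucleotides from which DNA is made. Many of these genes are transcribed under E2F factors as cells move from G1 into S phase, and their RNAs are commonly read as a sign of cycling cells. In the embryonic kidney, dividing cells include the nephron progenitors of the cap mesenchyme, the ureteric bud tips and the stroma, whereas cells of differentiated nephron segments divide less.

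Signals of the replication genes were lower in E18.5 than in E14.5 kidneys of both genotypes. With each gene read by its brightest probe set, the median stage ratio, which is the log2 of the E18.5 mean signal over the E14.5 mean signal, was -0.76 in Lim1 mutants (range -0.93 to -0.55 over the 4 pairings of single arrays) and -0.82 in controls (range -0.96 to -0.69), against medians over all 18194 genes of 0.017 in Lim1 mutants and -0.012 in controls. All 10 genes lay below 0 in both genotypes, and Cdc6 and Rrm2 showed the lowest ratios. Between genotypes the differences were smaller: the median log2 ratio of Lim1 mutants over controls was 0.16 in E18.5 kidneys, against 0.029 over all genes, and 0.11 in E14.5 kidneys, against 0.0093. No probe set of the 10 genes met the size criteria given below between genotypes. Few of all probe sets did: 0.0931% were higher and 1.27% lower in mutants at E18.5, and 0.00222% higher and 0.0732% lower at E14.5. That count therefore says little particular to these genes. In whole-kidney RNA, fewer cells that express a gene and less of its RNA per cell cannot be told apart.

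**Figure D1:**
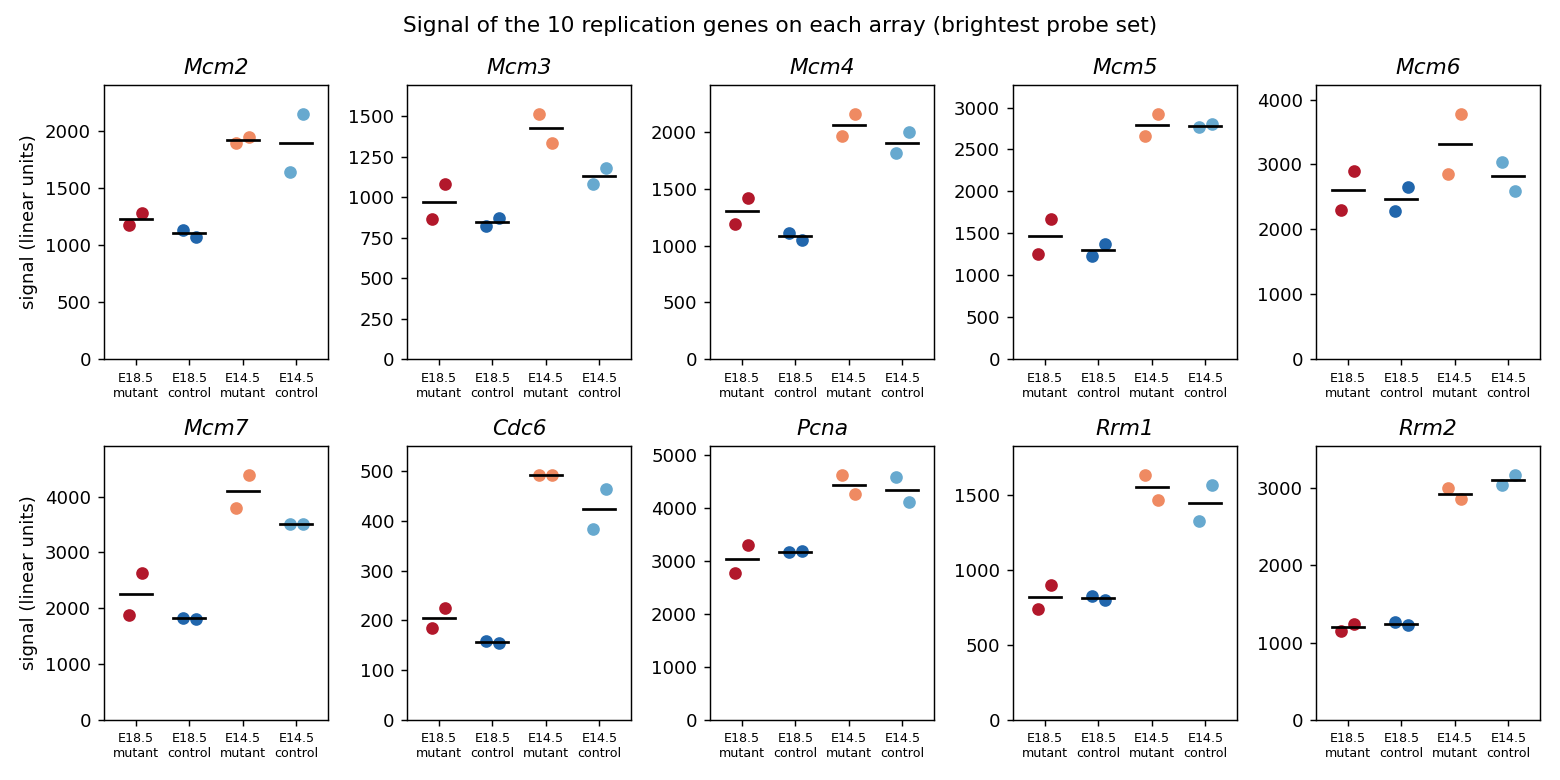
Linear signal of the 10 replication genes by pool, E18.5 Lim1 mutants at the left and E14.5 controls at the right, with 1 point for each of the 2 arrays of a pool, a black line for their mean and a y axis that starts at 0. The E18.5 arrays lie below the E14.5 arrays of the same genotype for 9 of the 10 genes, and those of Mcm6 overlap.

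Because all 10 genes had stage ratios below 0, the upstream sequences of 4 of them are shown. By the brightest probe sets, Cdc6 and Rrm2 had the lowest stage ratios of the 10 genes, Mcm5 had the lowest among the helicase subunits in both genotypes, and Mcm6 had the highest. Other probe sets of Mcm4, Mcm5 and Mcm6, given below, would change this order. The sequences are the 250 bases before the transcript start in the RefSeq table for GRCm38.p6, written 5′ to 3′ on the strand of the gene, where the start used can lie inside the span annotated for the gene. For Cdc6 all 250 bases lie inside that span, which begins at base 98907709, so the bases before the span are not shown. For Mcm5 the last bases lie inside it, from base 75109468. Capitals mark E2F-type letters and CCAAT on either strand.
Cdc6, chr11:98907901-98908150, plus strand: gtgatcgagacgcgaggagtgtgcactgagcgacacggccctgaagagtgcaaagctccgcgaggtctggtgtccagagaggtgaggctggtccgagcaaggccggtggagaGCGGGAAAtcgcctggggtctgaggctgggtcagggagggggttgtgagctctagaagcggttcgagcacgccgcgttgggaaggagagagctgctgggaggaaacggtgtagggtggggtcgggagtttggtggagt
Mcm5, chr8:75109259-75109508, plus strand: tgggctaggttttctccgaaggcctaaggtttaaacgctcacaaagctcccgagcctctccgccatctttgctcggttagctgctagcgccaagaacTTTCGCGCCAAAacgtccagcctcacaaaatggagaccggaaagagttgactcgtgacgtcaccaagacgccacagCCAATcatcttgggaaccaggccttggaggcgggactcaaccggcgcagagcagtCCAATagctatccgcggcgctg
Mcm6, chr1:128359706-128359955, minus strand: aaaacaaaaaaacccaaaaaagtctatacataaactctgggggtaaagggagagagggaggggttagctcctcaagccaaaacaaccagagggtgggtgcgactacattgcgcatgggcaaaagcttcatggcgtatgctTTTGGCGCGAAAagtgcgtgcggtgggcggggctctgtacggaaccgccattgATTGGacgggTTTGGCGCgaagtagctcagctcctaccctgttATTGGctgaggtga
Rrm2, chr12:24708004-24708253, plus strand: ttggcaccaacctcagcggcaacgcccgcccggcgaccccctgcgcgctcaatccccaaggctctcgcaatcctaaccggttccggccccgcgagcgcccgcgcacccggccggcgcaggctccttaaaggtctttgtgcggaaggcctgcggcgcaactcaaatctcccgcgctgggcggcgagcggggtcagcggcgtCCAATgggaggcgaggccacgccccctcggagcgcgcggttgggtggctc

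The E2F-type letters searched were TTTCGCGC, TTTGGCGC, TTTCCCGC and TTTGCCGC on both strands, in windows of 300 bases that also held the 50 bases after the start. A window was listed for 9 of the 10 genes (all but Mcm4), and Mcm7 had 2. The window of Cdc6 and 1 of those of Mcm7 lie wholly inside the annotated span of the gene. E2F-type letters were found for 5 of these 9 genes, namely Cdc6, Mcm3, Mcm5, Mcm6 and Mcm7, against 2.26% of all 32851 windows and 2.6% of all genes with a window. Of the lists described below, they were found for 5 of 10 E2F and pocket protein genes, 6 of 15 licensing genes and 8 of 21 fork genes. They were found for 2 of 25 nucleotide synthesis genes and 1 of 17 mitosis genes. In Cdc6 the match began 138 bases before the start used, and the bases before its annotated span were not searched. Mcm5 held a pair that began 153 and 149 bases before the start and shared bases, and Mcm6 held such a pair at 110 and 106 bases and another match at 47 bases before the start. The matches of Mcm3 lay after the start, and those of Mcm7 lay on both sides of it. The letters CCAAT, also read on both strands, were found for 8 of the 9 genes (all but Cdc6, by the window inside its gene). They were found in 37.4% of all windows and for 41.1% of all genes with a window. For the mitosis list they were found for 15 of 17 genes, for licensing 9 of 15 and for the fork 10 of 21. For nucleotide synthesis it was 9 of 25 and for E2F and pocket proteins 4 of 10. In Mcm7, 1 CCAAT match began on the last base of an E2F-type match, and no other match of the 9 genes shared bases between the motifs. TTTGAA, the core of the cell cycle homology region known from promoters of mitotic genes, was found for 1 of the 9 genes (Mcm2). It was found in 17.9% of all windows, for 20.2% of all genes with a window and for 12 of 17 genes of the mitosis list. These matches are descriptions of letters and not evidence of binding. A missing match says only that these letters are not in the window.

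Whole-array values gave the frame for these readings. Array medians lay between 225 and 243 signal units and the 40th percentile of an array between 177 and 193, and this percentile was taken as the minimum signal. The study's methods give a lower median after normalization than these arrays show, so the overall scale of the units is not settled, and a factor common to all arrays would leave the ratios as they are. Of the 27 probe sets, 23 reached it on both arrays in E18.5 Lim1 mutants, 22 in E18.5 controls, 24 in E14.5 Lim1 mutants and 24 in E14.5 controls. The 3 that did not in any pool were 1 probe set each of Mcm5 (1459658_at, 111 to 136 over the 8 arrays), Mcm6 (1447756_x_at, 18.8 to 33.0) and Rrm1 (1440073_at, 47.1 to 177), and each of these genes had brighter probe sets. The targeted gene, Lhx1, was read by a pair of probe sets. The first, 1421951_at, gave 459 and 379 in E18.5 Lim1 mutants, 342 and 382 in E18.5 controls, 323 and 289.8 in E14.5 Lim1 mutants and 388 and 365 in E14.5 controls. The other, 1450428_at, gave 296 and 333 in E18.5 Lim1 mutants, 369.9 and 352 in E18.5 controls, 563 and 554 in E14.5 Lim1 mutants and 449 and 517 in E14.5 controls. Neither was clearly lower in both mutant pools. Where these probes lie relative to the deleted part of the gene is not given in the sources used here, so they do not check the labels. Slc34a1, a sodium phosphate cotransporter that marks proximal tubules, averaged 79.5 in E18.5 Lim1 mutants and 5044 in E18.5 controls, and its order follows the labelled genotypes. It heads the study's own list for this contrast from these same arrays, so it is no independent check of the labels. At E14.5 it averaged 66.4 in Lim1 mutants and 143 in controls, below the minimum signal.

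The helicase subunits Mcm2, Mcm3 and Mcm4 were read well above the minimum signal on every array by their brightest probe sets. Mcm2 (chr6:88883474-88898780, GRCm38.p6) had signals of 1176 and 1278 in E18.5 Lim1 mutants, 1134 and 1071 in E18.5 controls, 1896 and 1946 in E14.5 Lim1 mutants and 1637 and 2147 in E14.5 controls by its brightest probe set, 1434079_s_at. Both E18.5 arrays lay below both E14.5 arrays in each genotype. The stage ratio was -0.65 (range -0.73 to -0.57) in Lim1 mutants and -0.78 (range -1.003 to -0.53) in controls. The other Mcm2 probe set, 1448777_at, gave -0.84 in both Lim1 mutants and controls. Mcm4 (chr16:15623897-15637400) had signals of 1188 and 1418 in E18.5 Lim1 mutants, 1112 and 1051 in E18.5 controls, 1966 and 2156 in E14.5 Lim1 mutants and 1815 and 1999.8 in E14.5 controls. Its stage ratios were -0.66 (range -0.86 to -0.47) in Lim1 mutants and -0.82 (range -0.93 to -0.71) in controls, again with no overlap between the arrays of the stages. A dimmer Mcm4 probe set, 1436708_x_at, gave lower ratios of -1.09 (range -1.24 to -0.94) in Lim1 mutants and -1.38 (range -1.78 to -0.92) in controls. For that probe set the duplicate E14.5 control arrays read 1414 and 2245.

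Mcm3 (chr1:20802966-20820312) was covered by 5 probe sets, more than any other of the 10 genes. The brightest, 1420028_s_at, had signals of 868 and 1079 in E18.5 Lim1 mutants, 820.5 and 871 in E18.5 controls, 1512 and 1338 in E14.5 Lim1 mutants and 1079 and 1179 in E14.5 controls. The arrays of the stages did not overlap in either genotype, and the E14.5 Lim1 mutant arrays were the highest of the 8. Its stage ratios were -0.55 (range -0.80 to -0.31) in Lim1 mutants and -0.42 (range -0.52 to -0.31) in controls. The ratios of all 5 probe sets lay between -0.79 and -0.43 in Lim1 mutants and between -1.01 and -0.42 in controls, and the lowest control ratio came from the dimmest of them, 1420029_at, whose E18.5 control arrays lay below the minimum signal.

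Mcm5, Mcm6 and Mcm7 are the remaining subunits of the ring. Mcm5 (chr8:75109468-75128439) had signals of 1258 and 1671 in E18.5 Lim1 mutants, 1232 and 1371 in E18.5 controls, 2656 and 2919 in E14.5 Lim1 mutants and 2763 and 2805 in E14.5 controls by 1436808_x_at. Every E18.5 array was far below every E14.5 array, and the E14.5 pools lay close together. Its stage ratios were -0.93 (range -1.21 to -0.67) in Lim1 mutants and -1.10 (range -1.19 to -1.01) in controls (a 2.14-fold lower signal). A second well-measured probe set, 1415945_at, gave smaller differences, -0.48 (range -0.69 to -0.26) in Lim1 mutants and -0.33 (range -0.48 to -0.17) in controls. Mcm7 (chr5:138164583-138172111) had signals of 1874 and 2626 in E18.5 Lim1 mutants, 1821 and 1812 in E18.5 controls, 3797 and 4385 in E14.5 Lim1 mutants and 3513 and 3510.4 in E14.5 controls. Its stage ratios were -0.86 (range -1.23 to -0.53) in Lim1 mutants and -0.95 (range -0.955 to -0.947) in controls, where the duplicate arrays of both pools agreed closely. The other 3 Mcm7 probe sets gave -0.70 to -0.63 in Lim1 mutants and -1.09 to -0.66 in controls.

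Mcm6 (chr1:128331575-128359705) had a pair of well-measured probe sets that differed from each other. By the brightest, 1416251_at, the signals were 2302 and 2904 in E18.5 Lim1 mutants, 2284 and 2645 in E18.5 controls, 2854 and 3772 in E14.5 Lim1 mutants and 3045 and 2589.8 in E14.5 controls. The stages overlapped in both genotypes, and the log2 ratios were -0.35 (range -0.71 to 0.025) in Lim1 mutants and -0.19 (range -0.41 to 0.03) in controls. By 1438852_x_at the signals were 639 and 771 in E18.5 Lim1 mutants, 731 and 663 in E18.5 controls, 1488 and 1465 in E14.5 Lim1 mutants and 1025 and 1644 in E14.5 controls. There the stages did not overlap, and the ratios were -1.07 (range -1.22 to -0.93) in Lim1 mutants and -0.94 (range -1.31 to -0.49) in controls. A name that ends in _x_at marks a probe set with probes that may also bind other transcripts, and 7 of the 27 probe sets carry it. The median stage ratio of these 7 was -0.93 in Lim1 mutants and -1.09 in controls, against -0.64 in Lim1 mutants and -0.76 in controls for the other 20. With all _x_at probe sets left out, the median over the 10 genes was -0.65 in Lim1 mutants and -0.80 in controls, a setting chosen after seeing the data.

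Cdc6, the loader, was with Rrm2 one of the pair of genes with the lowest stage ratios by the brightest probe sets. It lies at chr11:98907709-98923942 and was read by 1 probe set, 1417019_a_at, with signals of 185 and 224 in E18.5 Lim1 mutants, 158 and 155 in E18.5 controls, 492 and 492 in E14.5 Lim1 mutants and 383 and 464 in E14.5 controls. The E18.5 control arrays were the lowest and lay below the 40th percentile of their arrays, as did the first E18.5 Lim1 mutant array, while both E14.5 pools lay well above it. The stage ratio was -1.27 (range -1.41 to -1.13) in Lim1 mutants and -1.44 (range -1.59 to -1.28) in controls. Because E18.5 signals lay below the minimum, these are better read as a bound: with signals raised to each array's 40th percentile, a setting chosen after seeing the data, the E18.5 signal was at least 2.36-fold lower in Lim1 mutants and in controls (log2 of -1.24 in each). Pcna (chr2:132249286-132253180), the clamp, showed a smaller difference. Its probe set, 1417947_at, had signals of 2778 and 3307 in E18.5 Lim1 mutants, 3171 and 3179 in E18.5 controls, 4619.8 and 4261 in E14.5 Lim1 mutants and 4577 and 4108 in E14.5 controls. All E18.5 arrays lay below all E14.5 arrays, and the ratios were -0.55 (range -0.73 to -0.37) in Lim1 mutants and -0.45 (range -0.53 to -0.37) in controls.

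Ribonucleotide reductase is built from a large subunit, Rrm1, which holds the catalytic site, and a small subunit, Rrm2, which holds the radical and is made in S phase. Rrm2 (chr12:24708254-24714146) had signals of 1152 and 1242 in E18.5 Lim1 mutants, 1267 and 1225 in E18.5 controls, 3005 and 2852 in E14.5 Lim1 mutants and 3045 and 3168 in E14.5 controls by 1434437_x_at. The 4 E18.5 arrays lay within a narrow band well below the 4 E14.5 arrays. Its stage ratios were -1.29 (range -1.38 to -1.20) in Lim1 mutants, a 2.45-fold lower signal, and -1.32 (range -1.37 to -1.26) in controls, a 2.49-fold lower signal. A second probe set without the _x_at mark, 1448226_at, gave -1.28 in Lim1 mutants and -1.07 in controls, whereas 1416120_at gave -0.56 in Lim1 mutants and -0.38 in controls. Rrm1 (chr7:102441695-102469771) had signals of 738 and 901 in E18.5 Lim1 mutants, 828 and 798 in E18.5 controls, 1632 and 1468 in E14.5 Lim1 mutants and 1328 and 1563 in E14.5 controls. The arrays of the stages did not overlap, and the ratios were -0.92 (range -1.14 to -0.70) in Lim1 mutants and -0.83 (range -0.97 to -0.68) in controls. The other well-measured Rrm1 probe set, 1448127_at, gave -0.61 in Lim1 mutants and -0.996 in controls.

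**Figure D2:**
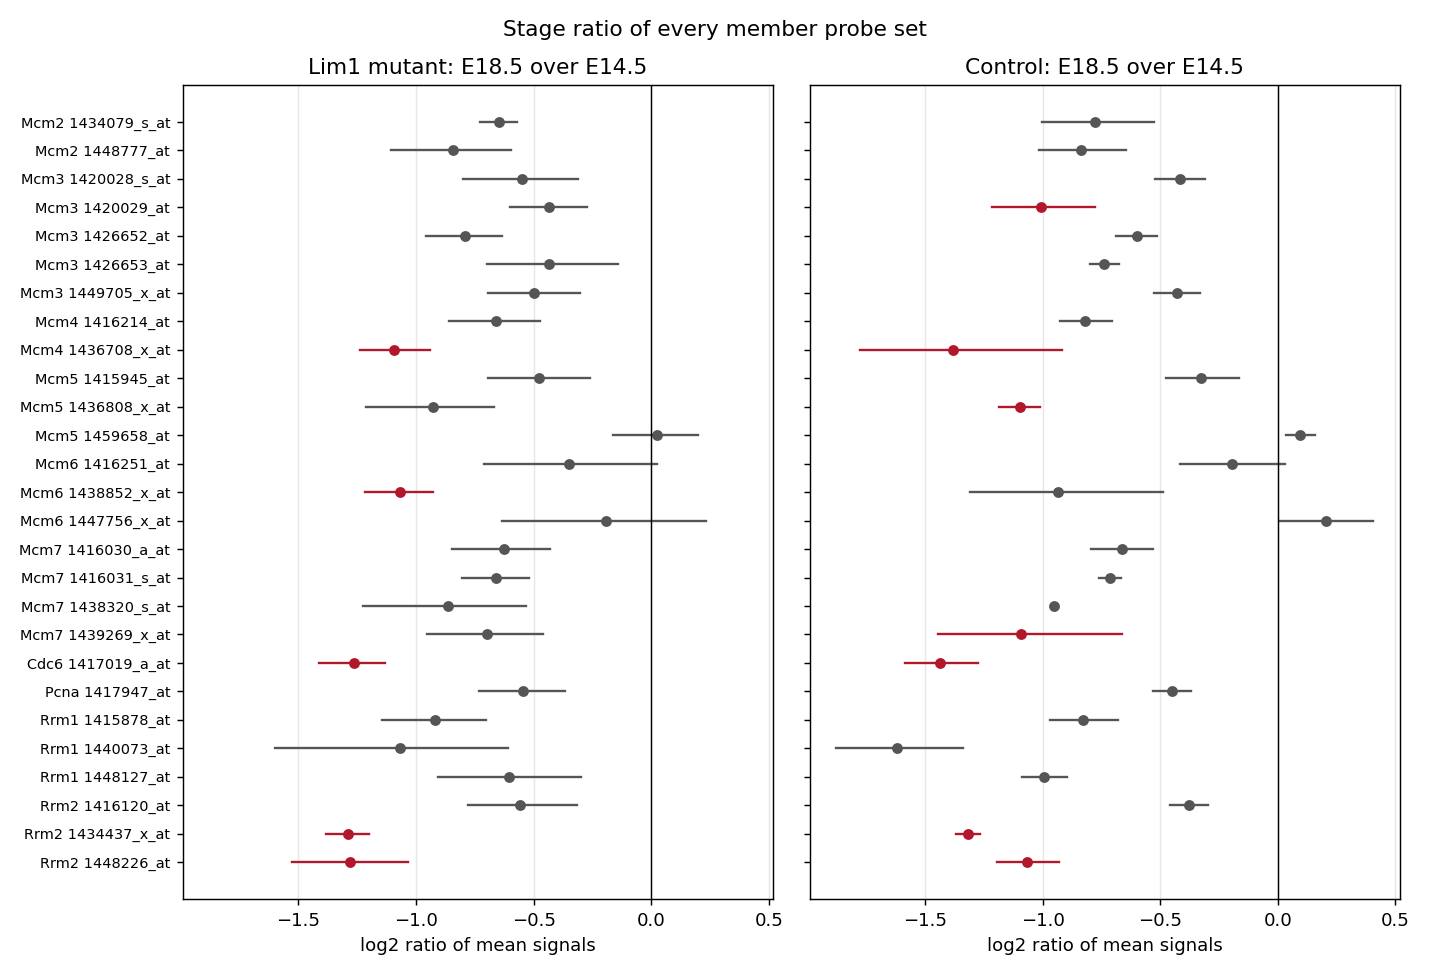
Stage ratio (log2, E18.5 mean signal over E14.5 mean signal) of each of the 27 probe sets, in Lim1 mutants (left panel) and controls (right panel), with lines for the range over the 4 pairings of single arrays and red for probe sets that met the size criteria. Ratios lie below 0 for 26 probe sets in Lim1 mutants and 25 in controls. The exceptions are probe sets of Mcm5 and Mcm6 below the minimum signal in every pool. Also below it there, but counted, are 1440073_at of Rrm1 (-1.07 in Lim1 mutants and -1.62 in controls) and, in Lim1 mutants, 1447756_x_at of Mcm6 (-0.19). With signals raised to the minimum, both were at 0.019 in Lim1 mutants, and 1440073_at was at -0.076 in controls.

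Counts were made under size criteria that follow the study's methods: a ratio of mean signals of at least 2 that exceeded the fold between duplicate arrays of either pool, a product of the higher mean and the ratio above 100, and a higher pool at or above the 40th percentile on both arrays. In Lim1 mutants 5 of the 27 probe sets were counted as lower at E18.5, those of Cdc6, Rrm2 (2 probe sets), Mcm4 and Mcm6, against 0.889% of all probe sets. In controls 7 of the 27 were counted, those of Cdc6, Rrm2 (2 probe sets), Mcm3, Mcm4, Mcm5 and Mcm7, against 1.85% of all probe sets. None was counted as higher in either genotype, against 0.721% of all probe sets in Lim1 mutants and 2.55% in controls (of all genes by the brightest probe set, 0.896% in Lim1 mutants and 3.57% in controls). By the brightest probe set alone, 2 of the 10 genes were counted in Lim1 mutants and 3 in controls, against 0.742% of all genes in Lim1 mutants and 1.21% in controls. Both E18.5 arrays lay below both E14.5 arrays for 9 of the 10 genes in each genotype, against 25.4% of the genes at or above the minimum signal in Lim1 mutants and 28.5% in controls. No gene lay wholly higher at E18.5, against 30.2% of these genes in Lim1 mutants and 37.2% in controls. The probe set of Cdc6 in both genotypes, and that of Mcm3 (1420029_at) in controls, reached the minimum signal on both arrays only in the E14.5 pool. With signals raised to the minimum, the counts were 5 in Lim1 mutants and 6 in controls, where the Mcm3 probe set was no longer counted. Without the second E14.5 control array the control count was 4, and the probe sets 1420029_at of Mcm3, 1439269_x_at of Mcm7 and 1448226_at of Rrm2 were no longer counted. Without the second E18.5 Lim1 mutant array the mutant count was 9, with 1 more probe set each of Mcm2, Mcm5, Mcm7 and Rrm1.

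A fit across the 4 pools with additive stage and genotype terms was made with limma on the mean log2(signal + 1) of each pool, over the 27061 probe sets with a mean signal at or above the 40th percentile. It had 1 residual degree of freedom, assumed a common stage effect in both genotypes and took most of its information on the spread from all genes (3.91 prior degrees of freedom). Of the 24 probe sets of the replication genes in the fit, 16 fell at E18.5 at an adjusted p under 0.05 and none rose, against 5.2% of all fitted probe sets that fell and 3.42% that rose. These 16 belonged to 9 genes, all but Pcna, although Mcm3 was among them through 1 of its 5 probe sets, and 23 of the 24 had an unadjusted p under 0.05, against 27.8% of all fitted probe sets. By the brightest probe set 7 genes fell, a count for which no share over all genes was computed. Cdc6 changed by -1.35 ± 0.12 (SE, limma, adjusted p = 0.018), Rrm2 by -1.30 ± 0.11 (SE, limma, adjusted p = 0.0179) and Mcm5 by -1.02 ± 0.12 (SE, limma, adjusted p = 0.0204) on the log2 scale. For Cdc6, with signals raised to the minimum, the change was -1.23 ± 0.11 (SE, limma, adjusted p = 0.0179), and is a bound as above. The changes of Mcm7, Rrm1, Mcm4 and Mcm2 lay between -0.91 and -0.71, with limma adjusted p from 0.0224 to 0.0347. Pcna, at -0.50 ± 0.11 (SE, limma, adjusted p = 0.0659), Mcm3, at -0.49 ± 0.12 (SE, limma, adjusted p = 0.0723), and Mcm6, at -0.27 ± 0.12 (SE, limma, adjusted p = 0.221), did not pass by their brightest probe sets. Mcm3 fell by 1426652_at, at -0.70 ± 0.12 (SE, limma, adjusted p = 0.0375), and Mcm6 by 1438852_x_at, at -0.98 ± 0.12 (SE, limma, adjusted p = 0.0217). The other 3 Mcm3 probe sets did not pass (limma adjusted p from 0.0669 to 0.0748), and neither did 1415945_at of Mcm5 (limma adjusted p = 0.108) and 1416120_at of Rrm2 (limma adjusted p = 0.0825). The count was 10 without the second E18.5 control array, where Mcm2 and Mcm4 did not pass by their brightest probe sets, and Mcm2 also did not pass without the second E14.5 control array.

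Size of the stage difference was compared between genotypes as a description, since 1 pool per condition leaves nothing to test it with. The log2 ratio in Lim1 mutants minus that in controls had a median of 0.058 over the 10 genes, against 0.014 over all genes. Cdc6 and Mcm5 had the highest difference (0.17 each) and Mcm6 the lowest (-0.15), but for Cdc6 it rested on E18.5 signals below the minimum, and with signals raised to it the ratio was -1.24 in both genotypes. The ratio was lower in mutants for 4 of the 10 genes, namely Mcm3, Mcm6, Pcna and Rrm1. These differences are by the brightest probe set, and the sign changed with the probe set for several genes. It was 0.39 for Rrm1 by 1448127_at, -0.15 for Mcm5 by 1415945_at and -0.21 for Rrm2 by 1448226_at. For Mcm3 it was 0.30 by 1426653_at but -0.19 by 1426652_at, and for Mcm6 it stayed below 0, at -0.13 by 1438852_x_at.

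Lim1 mutants were next set against controls of the same stage. At E18.5 the log2 ratio of Lim1 mutants over controls was above 0 for 8 of the 10 genes, and none of the 27 probe sets met the size criteria in either direction, against 0.0931% of all probe sets higher and 1.27% lower. Both mutant arrays lay above both control arrays for Mcm2, Mcm4, Mcm7 and Cdc6, which is 4 of the 10 genes against 23.4% of the genes at or above the minimum signal, and no gene lay wholly below, against 23.2% of these genes. The ratio was 0.39 (range 0.23 to 0.53) for Cdc6, 0.31 (range 0.041 to 0.53) for Mcm7 and 0.27 (range 0.095 to 0.43) for Mcm4. For Cdc6 the control arrays and 1 mutant array lay below the minimum signal, and its ratio was 0.22 with signals raised to it. For Mcm2 it was 0.15 (range 0.052 to 0.26). The ratios of Pcna, Rrm1 and Rrm2 by their brightest probe sets lay between -0.062 and 0.012, with ranges that spanned 0. By 1448127_at, the other well-measured Rrm1 probe set, the ratio was 0.27 (range 0.11 to 0.42), with both mutant arrays above both control arrays. For Rrm2, 1448226_at gave -0.15 and 1416120_at gave -0.010, with ranges that spanned 0. At E14.5 the ratio was above 0 for 9 genes and again none of the probe sets met the criteria, against 0.00222% of all probe sets higher and 0.0732% lower. By the brightest probe sets the arrays of the genotypes did not overlap for Mcm3 (0.34), Mcm7 (0.22) and Cdc6 (0.21), which were higher in mutants, or for Rrm2 (-0.085), which was lower. That is 3 of the 10 genes higher, against 25.9% of the genes at or above the minimum signal, and 1 lower, against 13.8%. For Rrm2, 1416120_at gave 0.17 and 1448226_at gave 0.068, with ranges that spanned 0.

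**Figure D3:**
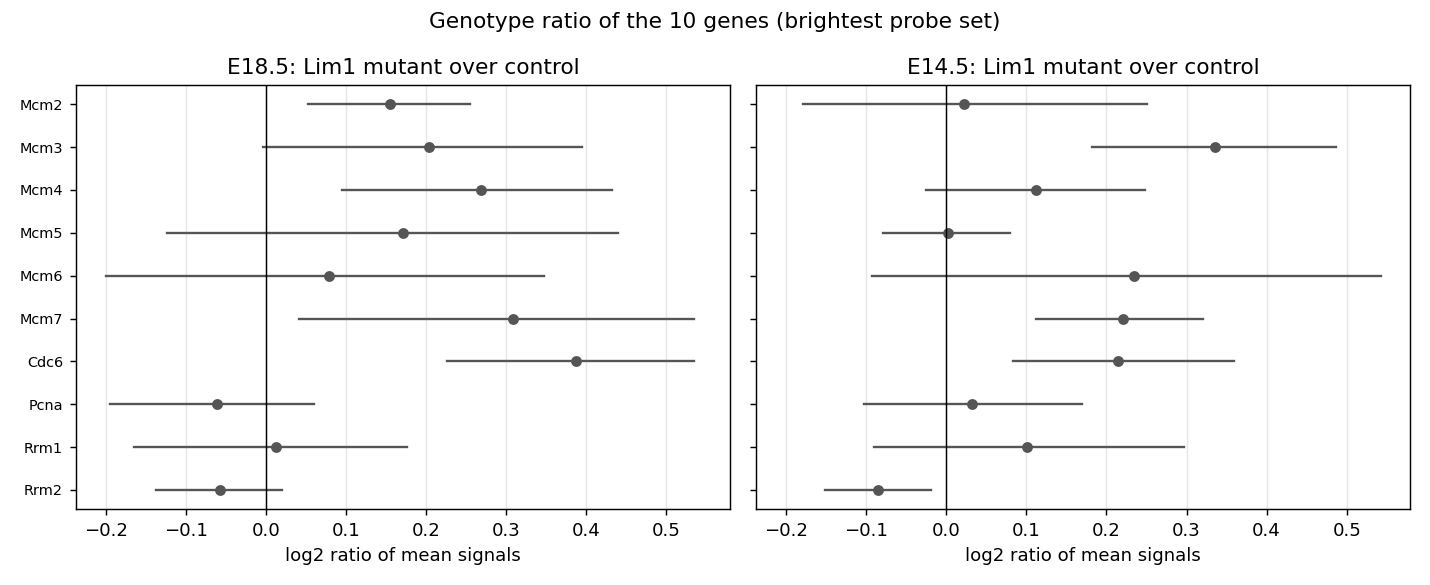
Log2 ratio of Lim1 mutant over control mean signal for the 10 genes by their brightest probe set at E18.5 (left panel) and E14.5 (right panel), with lines for the range over the 4 pairings of single arrays. No gene met the size criteria, which at most 1.27% of all probe sets met in either direction at either stage. The ratios lie between -0.062 and 0.39 at E18.5 and between -0.085 and 0.34 at E14.5.

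The E18.5 genotype ratios moved with 1 array. The second E18.5 Lim1 mutant array read higher than the first for all 10 genes, with a median ratio of 1.22 (1.08 to 1.40), against 1.03 over the genes at or above the minimum signal. In the other pools this median ratio was 0.986 (E18.5 controls), 1.01 (E14.5 Lim1 mutants) and 1.07 (E14.5 controls). Without the second E18.5 Lim1 mutant array the median log2 ratio of the 10 genes at E18.5 was -0.0055. In the limma fit the genotype term passed for none of the 24 probe sets (adjusted p = 0.9998 for each) and for none of all 27061, whose background is therefore 0%, so the count says nothing particular to these genes. At an unadjusted p under 0.05 it passed for 1 of the 24, the Mcm7 probe set 1416030_a_at at 0.37 ± 0.11 (SE), against 3.86% of all fitted probe sets.

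Other genes of DNA replication and cell division were read from 5 lists, each gene by its brightest probe set. The list of 19 mitosis genes lay closest to the 10 replication genes: its median stage ratio was -0.84 in Lim1 mutants and -0.81 in controls, and 14 of the 19 fell in the limma fit while none rose. Of all fitted probe sets 5.2% fell and 3.42% rose, which is also the background for the lists that follow. This background counts probe sets, whereas the lists count genes by their brightest probe set, and no such share over genes was computed. Of its 3 genes with the highest signal, Cdk1, the mitotic kinase, had log2 ratios of -0.86 in Lim1 mutants and -0.74 in controls and Mki67, the proliferation antigen, had -0.89 in Lim1 mutants and -0.83 in controls. Top2a, which untangles DNA, had -0.64 in Lim1 mutants and -0.82 in controls. Kif20a, a cytokinesis motor, met the size criteria in both genotypes, with -1.18 in Lim1 mutants and -1.41 in controls, as did Cenpe, a kinetochore motor, with -1.16 in Lim1 mutants and -1.33 in controls. Birc5, a subunit of the chromosomal passenger complex, met them in controls, at -0.998 in Lim1 mutants and -1.09 in controls.

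The remaining 19 genes of licensing and helicase activation had smaller stage ratios than the 10 genes above, with medians of -0.41 in Lim1 mutants and -0.40 in controls, and 5 of the 18 in the fit fell. Orc6, an origin recognition subunit, met the size criteria in both genotypes, with means of 371 in E18.5 Lim1 mutants, 421 in E18.5 controls, 943 in E14.5 Lim1 mutants and 937 in E14.5 controls. Cdt1, the partner of Cdc6 in loading, had ratios of -0.91 in Lim1 mutants and -1.03 in controls, and Gmnn, the inhibitor of Cdt1, had -0.84 in Lim1 mutants and -0.94 in controls. Mcmbp, which binds Mcm proteins, had -0.13 in Lim1 mutants and 0.14 in controls and did not pass the limma test. Among 25 genes of the replication fork, the medians were -0.44 in Lim1 mutants and -0.40 in controls, and 6 fell. Of the single-strand binding subunits, Rpa1 had ratios of -0.89 in Lim1 mutants and -0.83 in controls, and Rpa3 had -1.07 in Lim1 mutants and -0.91 in controls. Rfc4, a subunit of the clamp loader for Pcna, had -0.92 in Lim1 mutants and -1.14 in controls, and Tipin, of the fork protection complex, had -0.99 in Lim1 mutants and -1.09 in controls. Fen1, the flap endonuclease, had -0.45 in Lim1 mutants and -0.79 in controls and did not pass the limma test.

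Genes of nucleotide synthesis had a median stage ratio nearer 0 than the ratios of Rrm1 and Rrm2. The median stage ratio was -0.29 in Lim1 mutants and -0.089 in controls over the 27 genes measured, and 3 fell. Ratios lay below 0 for 25 of the 27 in Lim1 mutants and 14 in controls, and both E18.5 arrays lay below both E14.5 arrays for 17 genes in Lim1 mutants, against 25.4% of the genes at or above the minimum signal, and for 11 in controls, against 28.5%. Dck, deoxycytidine kinase of the salvage route, had means of 279 in E18.5 Lim1 mutants, 234 in E18.5 controls, 834 in E14.5 Lim1 mutants and 879.7 in E14.5 controls, and its ratios of -1.58 in Lim1 mutants and -1.91 in controls were below those of all 10 replication genes by their brightest probe sets. Pfas, an enzyme of purine synthesis, met the size criteria in controls (-0.50 in Lim1 mutants and -1.15 in controls) and did not pass the limma test. Nme1, a nucleoside diphosphate kinase, met them in Lim1 mutants (-1.08 in Lim1 mutants and -0.70 in controls). Nme2, of the same family, and Paics, of purine synthesis, lay between -0.29 and -0.18 in Lim1 mutants and between 0.25 and 0.27 in controls. The 13 E2F and pocket protein genes had medians of 0.066 in Lim1 mutants and 0.056 in controls, and none passed the limma test in either direction. E2f1, E2f5 and Tfdp1 had the highest signals of the list, with ratios between -0.41 and 0.30. Rb1, the retinoblastoma pocket protein that restrains E2F factors, had means of 330.2 in E18.5 Lim1 mutants, 749 in E18.5 controls, 227 in E14.5 Lim1 mutants and 273 in E14.5 controls, and met the size criteria as higher in E18.5 than E14.5 controls and as lower in E18.5 Lim1 mutants than E18.5 controls. The median log2 ratios of the 5 lists for Lim1 mutants over controls lay between -0.037 and 0.11 in E18.5 kidneys and between 0.051 and 0.14 in E14.5 kidneys.

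**Figure D4:**
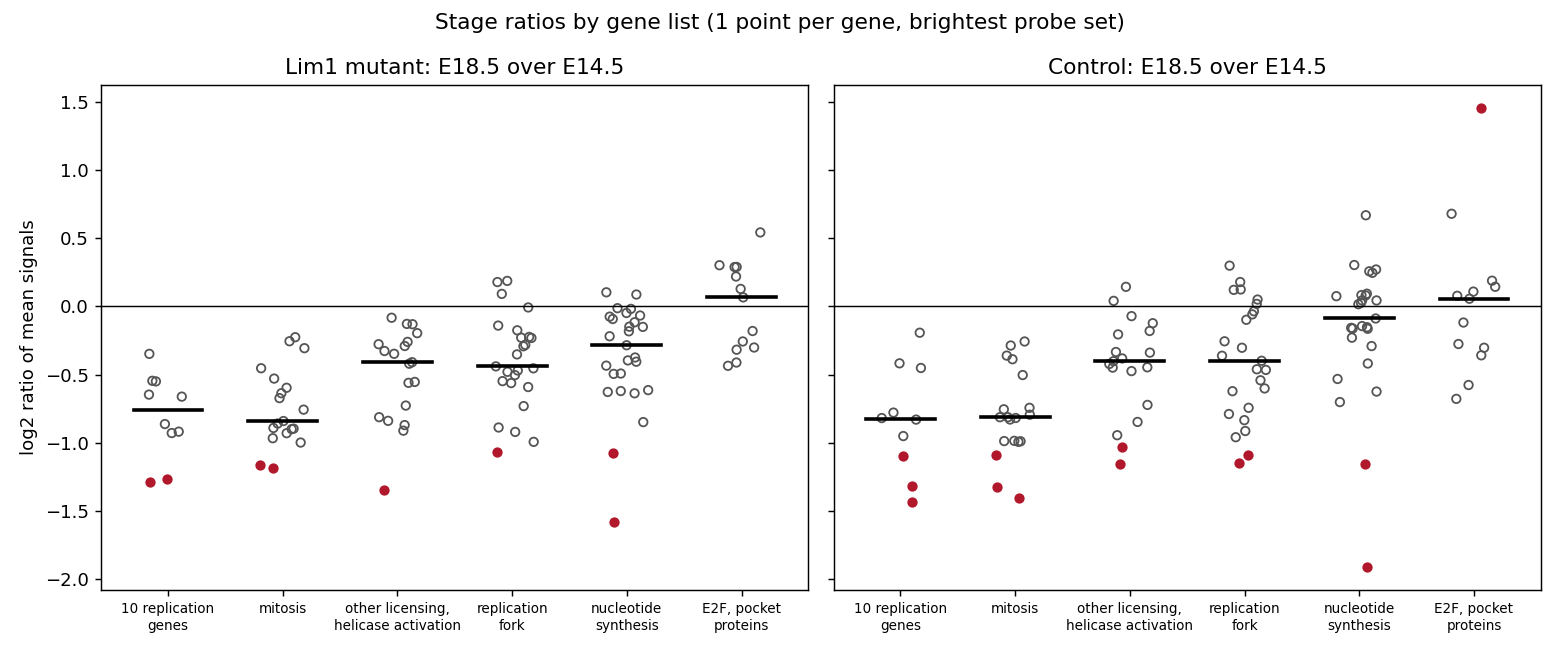
Stage ratio (log2, E18.5 mean signal over E14.5 mean signal) with 1 point for every gene, read as in the text, for the 10 replication genes and 5 gene lists in Lim1 mutants (left panel) and controls (right panel), with a black line for each median and filled red points for genes that met the size criteria. The replication genes and the mitosis genes have medians between -0.84 and -0.76, the E2F and pocket protein genes of 0.066 in Lim1 mutants and 0.056 in controls.

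The genes whose pattern over the 8 arrays was most like the mean of the 10 were sought among the 13441 genes at or above the minimum signal, by the root mean square difference of centred log2 signals. The 5 closest outside the 10 were Mki67 (0.049), Dis3 (0.060), Ccm2 (0.065), Cdc45 (0.067) and Ccnb2 (0.069). Mki67 and Ccnb2 were on the mitosis list and Cdc45, a component of the active helicase, on the licensing list, and neither Dis3, of the RNA exosome, nor Ccm2 was on any list. Of the 10 genes themselves Mcm4 lay closest to their mean (0.069) and Mcm6 farthest from it (0.31). Each of the 10 is part of that mean, so their distances are not directly comparable with those of genes outside it. Among the 13441 genes Mcm4 ranked 5, while Rrm2 ranked 1098, Cdc6 1310 and Mcm6 1625.

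Marker genes of kidney cell types were read in the same pools. In the limma fit, where 5.2% of all probe sets fell and 3.42% rose, Six2 fell at E18.5, as 1 of 9 nephron progenitor markers, and of 6 stroma markers Foxd1 fell while Col1a1 and Col3a1, which encode fibrillar collagens, rose. Of 5 macrophage markers C1qa and C1qc, which encode complement subunits, rose, of 6 erythroid markers the embryonic globins Hbb-y and Hba-x fell, and no ureteric bud tip, proximal tubule or podocyte marker passed. The fit assumed a common stage effect, so it says little of a rise in 1 genotype. By the size criteria 8 of 10 proximal tubule and 2 of 4 podocyte markers were higher in E18.5 than E14.5 controls, against 3.57% of all genes. In Lim1 mutants 1 proximal tubule and 0 podocyte markers were higher, against 0.896%. Of 10 nephron progenitor markers 3 were counted as lower in controls, against 1.21% of all genes, and 0 in Lim1 mutants, against 0.742%. None was counted as higher. The 3 were Six2 (-0.58 in Lim1 mutants and -1.07 in controls), Eya1 (-0.55 in Lim1 mutants and -1.11 in controls) and Sall1 (-0.49 in Lim1 mutants and -1.03 in controls). Of 6 stroma markers 1, Foxd1, was lower in each genotype, and no ureteric bud tip marker was counted. The summed signal of the 10 replication genes was 13519 to 16651 over the 2 arrays of E18.5 Lim1 mutants, 13828 to 14178 in E18.5 controls, 24430 to 25590.0 in E14.5 Lim1 mutants and 23184 to 23534 in E14.5 controls. Over 10 nephron progenitor markers the sum was 8749.9 to 10297 in E18.5 Lim1 mutants, 6545 to 6822 in E18.5 controls, 10204 to 10717 in E14.5 Lim1 mutants and 8702 to 9765 in E14.5 controls. Six2, which defines the cap mesenchyme, averaged 1382 in E18.5 Lim1 mutants, 813 in E18.5 controls, 2068 in E14.5 Lim1 mutants and 1709.9 in E14.5 controls. Stage ratios lay below 0 for 7 of the 10 nephron progenitor markers in each genotype, against 8573 (Lim1 mutants) and 9414 (controls) of all 18194 genes. The 3 above 0 were Cited1 (0.51 in Lim1 mutants and 0.061 in controls), Itga8 (0.42 in Lim1 mutants and 0.70 in controls) and Meox1 (0.18 in Lim1 mutants and 0.073 in controls). Foxd1, which defines the cortical stroma, averaged 505 in E18.5 Lim1 mutants, 395 in E18.5 controls, 1589 in E14.5 Lim1 mutants and 1490.3 in E14.5 controls. Over 10 proximal tubule markers the sum was 2465 to 2516 in E18.5 Lim1 mutants, 24544 to 25369.7 in E18.5 controls, 1958 to 2159 in E14.5 Lim1 mutants and 2612 to 2687 in E14.5 controls. The median stage ratio of the marker lists was -0.035 in Lim1 mutants and -0.36 in controls for nephron progenitors, 0.15 in Lim1 mutants and -0.099 in controls for the ureteric bud tip, and 0.59 in Lim1 mutants and 0.18 in controls for the stroma. It was 0.23 in Lim1 mutants and 3.74 in controls for the proximal tubule, 0.16 in Lim1 mutants and 0.90 in controls for podocytes, 0.27 in Lim1 mutants and 0.086 in controls for macrophages, and -0.16 in Lim1 mutants and -0.20 in controls for erythroid cells. Between Lim1 mutants and controls at E18.5 the median log2 ratio was 0.62 for the nephron progenitor list, 0.36 for 6 ureteric bud tip markers, 0.35 for 6 stroma markers, 0.41 for 7 macrophage markers, -0.019 for 7 erythroid markers, -1.01 for 4 podocyte markers and -3.96 for the proximal tubule list. No marker was listed at 0 on any array, and the part of these cell types in the ratios of the replication genes was not tested.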

How the data were processed

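Total RNA of pooled whole kidneys was hybridized to 8 Affymetrix Mouse Genome 430 2.0 arrays, and samples were grouped by their labels. The deposited values are linear signal intensities, 1 per probe set and array: the authors scaled the scans to 250 in Microarray Suite 5.0, modelled the signal in dChip and normalized the arrays to an invariant set of probes, per the study's methods, whose stated median after normalization differs from that of the deposited arrays, so the overall scale is not settled. Detection calls were not used, and a minimum signal at each array's 40th percentile took their place. Precision is limited by the number of arrays. The platform table, with current symbols, gave 34958 of the 45101 probe sets 1 gene, 932 several and 9211 none.

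Ratios were computed from arithmetic means of the duplicate arrays, with ranges over the 4 pairings of single arrays, in Python 3.11.15. The additive fit used limma 3.58.1 in R 4.3.3, with two-sided tests and Benjamini-Hochberg adjustment. It was also run on simulated data with a chosen spread between pools and the same stage effect in both genotypes. That run cannot check the assumption of a common stage effect. A gene was read by the probe set with the highest mean over the 8 arrays. All 10 genes were named, and from each pathway list the genes that met the size criteria and the 3 with the highest mean signal, with defining markers of the cell type lists. Markers that passed the limma test were also named, as were nephron progenitor markers with stage ratios above 0 or that met the size criteria. The genes and lists were chosen with earlier results of these data known. Listed genes that were not matched to a probe set with a single symbol were left out. Alternatives changed the minimum signal, the normalization, the mean, an added offset, the duplicate criterion, the probe sets read, the limma prior and the arrays used, and, chosen after seeing the data, left out _x_at probe sets or raised signals to the minimum.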

Additional observations from a re-analysis of the deposited data

Results flagged for a closer look

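One probe set of Mcm3, 1420029_at, had opposite genotype differences at the 2 stages. Its signals were 223 and 193 in E18.5 Lim1 mutants against 181 and 174 in E18.5 controls, a log2 ratio of 0.23 (0.22 with signals raised to the minimum, since both E18.5 control arrays lay below it), and 293 and 269.8 in E14.5 Lim1 mutants against 309.8 and 404 in E14.5 controls, a log2 ratio of -0.34. All mutant arrays lay above the control arrays at E18.5 and below them at E14.5, and the difference between the stages was not tested. The other 4 probe sets of Mcm3 had log2 ratios above 0 at both stages.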

How the results depend on the processing

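Each condition was 1 RNA pool, so the spread between duplicate arrays is technical and says nothing of the spread between embryos. The arrays number 8, and 1 probe set each of Mcm5, Mcm6 and Rrm1 lay below the minimum signal in every pool. The stage ratios of all 10 genes kept their sign in all 91 values of each genotype that an alternative moved. Genotype ratios, which lay near 0 for several genes, changed sign in 9 of 91 such values at E18.5 and 12 of 90 at E14.5, among them Pcna, Rrm1, Rrm2, Mcm2, Mcm5 and Mcm6. No probe set of these genes met the size criteria between genotypes under any alternative. Under the main settings at most 1.27% of all probe sets met them in either direction, so this says little particular to these genes. The limma genotype term passed for none of all 27061 probe sets, so its result for these genes says nothing about stability.

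The count of probe sets lower at E18.5 was 5 in Lim1 mutants, 3 after quantile normalization and 4 to 9 with 1 array left out, and it was 7 in controls and 4 to 9 with 1 array left out. The limma stage count was 16, and 10 to 18 with 1 array left out. With 1 array left out, the median stage ratio was -0.93 to -0.61 in Lim1 mutants and -0.95 to -0.73 in controls, and the median ratio of Lim1 mutants over controls was -0.0055 to 0.29 at E18.5 and 0.063 to 0.20 at E14.5, where the 0.20 came from leaving out the second E14.5 control array. The cause of these shifts was not tested. Over 14 alternatives the limma adjusted p of Pcna stayed between 0.0516 and 0.0938, that of Cdc6 between 0.000341 and 0.034 and that of Rrm2 between 0.000498 and 0.034. No paired analysis was possible because the array numbers are technical duplicates of 1 RNA, averaged per pool, and pair nothing across pools.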
